A study of Mus musculus with 14 samples.

Results

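Trimethylation of histone H3 at lysine 4 (H3K4me3) was measured by ChIP-seq at regions assigned to 7 genes of cortical neurons. Tle4, Fezf2, Neurod2 and Camk2a belong to glutamatergic projection neurons, and Gabbr1, Gabra2 and Erbb4 belong to GABA signalling and interneurons. They were found by gene symbol among regions with values in both deposited tables, and gave 8 of 14881 regions, since Gabbr1 had 2. The tissue was the cerebral cortex of mice of strain C57BL/6J at an age of 3 months, and nicotine solution was set against saccharin solution. In the postnatal-only exposure there were 4 nicotine and 4 saccharin libraries, and in the exposure before and after birth (called pre- and postnatal here) 3 nicotine and 3 saccharin libraries. The treatment text is the same for all samples and describes solution given to dams from conception and later withdrawn from the offspring, so a postnatal-only course is known from the group names alone.

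H3K4me3 is laid down around transcription start sites by SET1 and MLL methyltransferase complexes, and marks promoters that are active or poised, above all those rich in CG pairs. Projection neurons are the excitatory output cells of the cortex, whose layer identities are set by transcription factors such as FEZF2 and by corepressors such as TLE4. GABA is released by local interneurons and acts through ion channel (GABA-A) and G protein-coupled (GABA-B) receptors, which projection neurons carry as well. The cortex was taken whole, so fewer cells of a type and less mark per cell cannot be told apart in any value below.

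The members were chosen with nicotine against saccharin differences of these data known. Earlier descriptions had named Tle4, Fezf2, Gabbr1 and Gabra2 for their postnatal differences. In the pre- and postnatal table Camk2a and Neurod2 held the lowest and the next lowest unadjusted p of 23 measured projection neuron genes, and Erbb4 stood at rank 4 of 31 measured GABA genes, so these values are taken to have chosen them. Differences that chose a gene are given below as descriptions without a test. A gene's difference in the other exposure, which has its own libraries and controls, is given with the adjusted p of the fit over all regions, although both tables had been seen.

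The signal is the read count per region after adjustment by the submitters, within each table. It summed to 2004918 to 2489860 per postnatal library and to 1445810 to 2372855 per pre- and postnatal library, and raw depth is unknown. In each postnatal group, library 1 differed from library 2, and library 3 from library 4, by a variance of 1.01 to 1.08 times counting noise, against 2.21 to 2.71 times for other pairs. Since they differed by no more than about the sampling noise, their mean stands for 1 sample (n = 2 against 2). A set of 15 very strong regions took 10.04% and 25.2% of the signal in the postnatal nicotine samples and 8.47% and 18.7% in the saccharin samples. The postnatal samples of high share were nicotine 1 and 2 and saccharin 3 and 4. In the pre- and postnatal table the share was 19.1% to 49.7% in nicotine libraries and 28.8% to 39.9% in saccharin libraries. The labels do not say that libraries come from separate animals, so p-values measure only the spread between these samples.

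Reference promoters are shown for the genes with the strongest and the weakest signal per length, since CG content is what the mark is known to follow. RefSeq promoters (build GRCm38.p6, from 250 bases before to 50 after a start) were matched by symbol for 6 of the 7 genes, with Camk2a not matched. Tle4 has 2 such promoters. Each is printed 5′ to 3′ on the gene's strand, with CG pairs in capitals. The regions of the tables are on build mm9, so the promoters were not placed within them.
Tle4 promoter at chr19:14598134-14598433, minus strand: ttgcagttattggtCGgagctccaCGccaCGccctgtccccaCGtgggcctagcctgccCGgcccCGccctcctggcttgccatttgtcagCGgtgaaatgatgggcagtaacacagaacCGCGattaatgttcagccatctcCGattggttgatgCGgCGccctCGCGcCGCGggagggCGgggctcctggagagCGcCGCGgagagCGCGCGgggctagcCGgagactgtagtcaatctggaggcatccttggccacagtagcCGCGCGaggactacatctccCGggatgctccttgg
Tle4 promoter at chr19:14597164-14597463, minus strand: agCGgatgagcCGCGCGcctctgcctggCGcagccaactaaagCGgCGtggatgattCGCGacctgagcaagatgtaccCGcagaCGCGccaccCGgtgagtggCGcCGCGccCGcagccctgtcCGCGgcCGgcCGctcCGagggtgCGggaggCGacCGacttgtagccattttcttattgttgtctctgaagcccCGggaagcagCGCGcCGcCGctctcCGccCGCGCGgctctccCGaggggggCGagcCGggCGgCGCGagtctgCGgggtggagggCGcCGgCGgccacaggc
Gabbr1 promoter at chr17:37045716-37046015, plus strand: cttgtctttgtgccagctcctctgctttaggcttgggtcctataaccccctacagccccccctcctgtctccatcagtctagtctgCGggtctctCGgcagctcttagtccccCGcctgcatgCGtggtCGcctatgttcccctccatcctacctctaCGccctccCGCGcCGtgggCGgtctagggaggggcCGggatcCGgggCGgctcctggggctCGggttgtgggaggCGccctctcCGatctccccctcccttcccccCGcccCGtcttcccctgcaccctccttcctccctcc
Fezf2 promoter at chr14:12345816-12346115, minus strand: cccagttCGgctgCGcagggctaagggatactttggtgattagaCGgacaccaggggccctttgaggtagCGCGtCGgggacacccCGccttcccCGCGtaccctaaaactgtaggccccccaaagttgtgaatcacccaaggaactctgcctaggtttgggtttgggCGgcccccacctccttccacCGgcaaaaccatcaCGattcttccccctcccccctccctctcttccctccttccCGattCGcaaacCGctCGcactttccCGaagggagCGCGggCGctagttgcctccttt

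The Tle4 promoters held 28 and 44 CG pairs, against a median of 7 over 32851 RefSeq promoters of the same length. The Gabbr1 promoter held 18 and the Fezf2 promoter 20. Those of Gabra2, Erbb4 and Neurod2 held 25, 17 and 16, so all 7 promoters of the 6 genes lay at percentile 67.0 or above of all RefSeq promoters. Genes with a marked region were richer in CG pairs, with a median of 22 over 5907 such genes with 1 RefSeq promoter. Fezf2, Gabbr1, Erbb4 and Neurod2 lay below that median. The GC box GGGCGG, searched on both strands, was present in 6 of these 7 promoters (all but that of Erbb4) and in 35.7% of all RefSeq promoters. The TATA box TATAAA, also on both strands, was in 0 of 7 and in 13.6% of all promoters. The E-box CANNTG, which reads the same on both strands and is the letter pattern bound by NEUROD2 and other basic helix-loop-helix factors, was in 3 of 7 (Neurod2, Gabra2 and 1 of the Tle4 promoters) and in 72.3% of all. Across 5907 genes with 1 RefSeq promoter and a region in the tables, the rank correlation between CG pairs and signal per kb was 0.47 in the postnatal and 0.44 in the pre- and postnatal table, as a description over genes that share libraries. Among the 6 genes the order by CG pairs was not the order by signal: Fezf2, the weakest, had more pairs than Gabbr1, Erbb4 and Neurod2.

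All 8 regions were wider than the median of 1583 bp over all regions, and 4 of them lay above the 90th percentile. Levels between genes are compared as signal per kb of region. Those of projection neuron genes are given next, in mm9 coordinates.

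The Tle4 region (chromosome 19, 14670947 to 14672627, width 1680 bp, transcript NM_011600) was strongly marked per length. TLE4 is a Groucho-type corepressor found in deep-layer corticofugal neurons. Its signal per kb averaged 166 ± 15.9 in postnatal samples (SD, n = 4) and 104 ± 4.85 in pre- and postnatal samples (SD, n = 6), which is percentile 94.9 and percentile 96.3 of all regions. Every sample of Tle4 lay above every sample of the next member in both tables.

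The Fezf2 region (chromosome 14, 13176886 to 13178599, width 1713 bp, NM_080433) was of about the same width as that of Tle4 and lay at the other end of the order. FEZF2 is the zinc finger factor that specifies subcerebral projection neurons. It held 24.5 ± 5.28 per kb in postnatal samples (SD, n = 4) and 16.7 ± 2.55 in pre- and postnatal samples (SD, n = 6), which is percentile 22.9 and percentile 18.2. In the pre- and postnatal table all 6 of its samples lay below every other member. In the postnatal table they overlapped with Camk2a.

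The Neurod2 region (chromosome 11, 98188034 to 98191079, width 3045 bp, NM_010895) was among the widest, at percentile 97.5 of width. NEUROD2 is a basic helix-loop-helix factor of differentiating and mature excitatory neurons. Its signal per kb was 58.0 ± 4.35 (SD, n = 4) and 30.5 ± 5.89 (SD, n = 6) in the postnatal and the pre- and postnatal table. The Camk2a region (chromosome 18, 61084914 to 61086979, width 2065 bp, NM_177407) belongs to the alpha subunit of the calcium- and calmodulin-dependent kinase of excitatory synapses. It held 31.8 ± 6.78 per kb (SD, n = 4) and 34.4 ± 6.25 (SD, n = 6). Camk2a was the only one of the 8 regions whose value was not lower in the pre- and postnatal table, where the median of all regions was 32.3 against 49.5 in the postnatal table. Its percentile was 53.2 in the pre- and postnatal table and 32.6 in the postnatal table. In the saccharin samples alone these percentiles were 45.7 and 31.8, and 8.39% of all regions moved by as many percentile points or more. The tables were adjusted separately and hold different libraries, so exposure and table cannot be told apart.

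Gabbr1, the GABA-B receptor subunit that binds GABA, had 2 regions under a single transcript (NM_019439). The gene is known for alternative start sites that yield a longer and a shorter protein. The upstream region (chromosome 17, 37181894 to 37184518, width 2624 bp) held 96.9 ± 10.6 per kb in postnatal samples (SD, n = 4) and 51.1 ± 11.02 in pre- and postnatal samples (SD, n = 6). The downstream region (37187272 to 37188985, width 1713 bp) held 41.3 ± 7.93 and 30.7 ± 5.25. The upstream region was the stronger per kb in every sample. Its ratio to the downstream region was 2.29 and 2.52 in postnatal nicotine samples, against 2.03 and 2.69 in saccharin samples. In the pre- and postnatal table the ratio was 2.26, 1.73 and 1.26 in nicotine libraries, against 1.78, 1.498 and 1.58 in saccharin libraries. Nicotine and saccharin overlapped in this ratio in both tables.

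The Gabra2 region (chromosome 5, 71485539 to 71488184, width 2645 bp, NM_008066) belongs to an alpha subunit of the GABA-A receptor. It held 43.4 ± 3.88 per kb (SD, n = 4) and 33.6 ± 5.12 (SD, n = 6). The Erbb4 region (chromosome 1, 69152030 to 69155165, width 3135 bp, NM_010154), the widest of the 8, belongs to the neuregulin receptor that is enriched in cortical interneurons. It held 54.2 ± 5.48 (SD, n = 4) and 29.3 ± 5.24 (SD, n = 6). In the postnatal table the order from high to low was Tle4, Gabbr1 upstream, Neurod2, Erbb4, Gabra2, Gabbr1 downstream, Camk2a and Fezf2, and from Neurod2 down each neighbour overlapped the next. In the pre- and postnatal table Camk2a stood at the third place, Neurod2 at the sixth and Erbb4 at the seventh, and all neighbours from Gabbr1 upstream to Erbb4 overlapped.

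**Figure D1:**
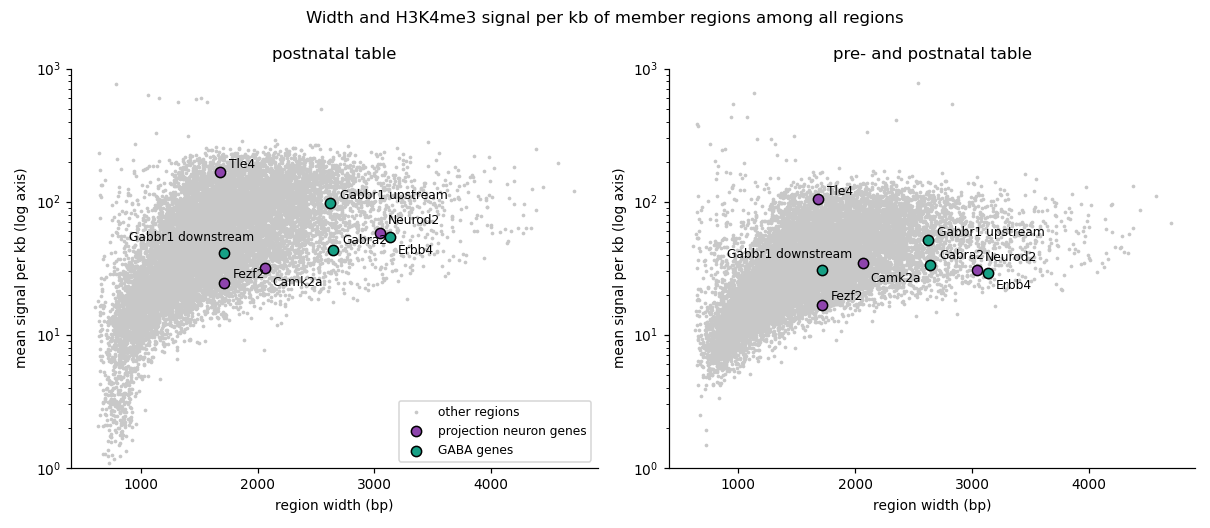
Region width (bp) against mean signal per kb (log axis) for all regions (grey), projection neuron genes (purple) and GABA genes (green), with the postnatal table left and the pre- and postnatal table right. Regions at or under 1 or at or over 1000 per kb (27 in each table) are not drawn. Tle4 lies near the top at 1680 bp and Fezf2 near the bottom at 1713 bp, while Neurod2 and Erbb4 are wide and of middle level.

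The surrounding lists place these levels among genes of like function. The lists were put together with results of these data known, and the strongest region stood for a gene. Of 33 projection neuron and layer genes 23 had a region with values. Tle4 was the strongest of them per kb in both tables. Nfia, a factor shared by neurons and astrocytes, held 157 per kb in the postnatal table and 87.7 in the pre- and postnatal table, and Cux1, an upper-layer homeobox gene, held 129 and 62.7. At the low end, near Fezf2, stood the layer-restricted factors Rorb (22.4 and 17.1) and Cux2 (12.1 and 17.1). Not all layer factors were low: Foxp2, of deep layers, held 73.9 and 44.1, while Sox5, also of deep layers, held 22.2 and 28.0. Tbr1, a deep-layer T-box factor, held 49.4 and 37.2, and Slc17a7, the vesicular glutamate transporter, 44.1 and 32.3.

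Of 47 GABA receptor and interneuron genes 31 had a region with values. The receptor genes Gabbr2 (136 and 82.4 per kb) and Gabra5 (110.4 and 64.5) stood above both Gabbr1 regions. The genes of interneuron identity stood below Gabra2 and Erbb4: Lhx6, a factor of interneurons from the medial ganglionic eminence, held 25.4 and 14.3, Dlx1 held 23.8 and 12.5, and Gad2, an enzyme that makes GABA, held 15.4 and 12.4. Slc32a1, the vesicular GABA transporter, held 25.3 and 17.6. Not all genes of interneurons were low, since Satb1, which T cells and other neurons also express, held 146 and 81.1.

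**Figure D2:**
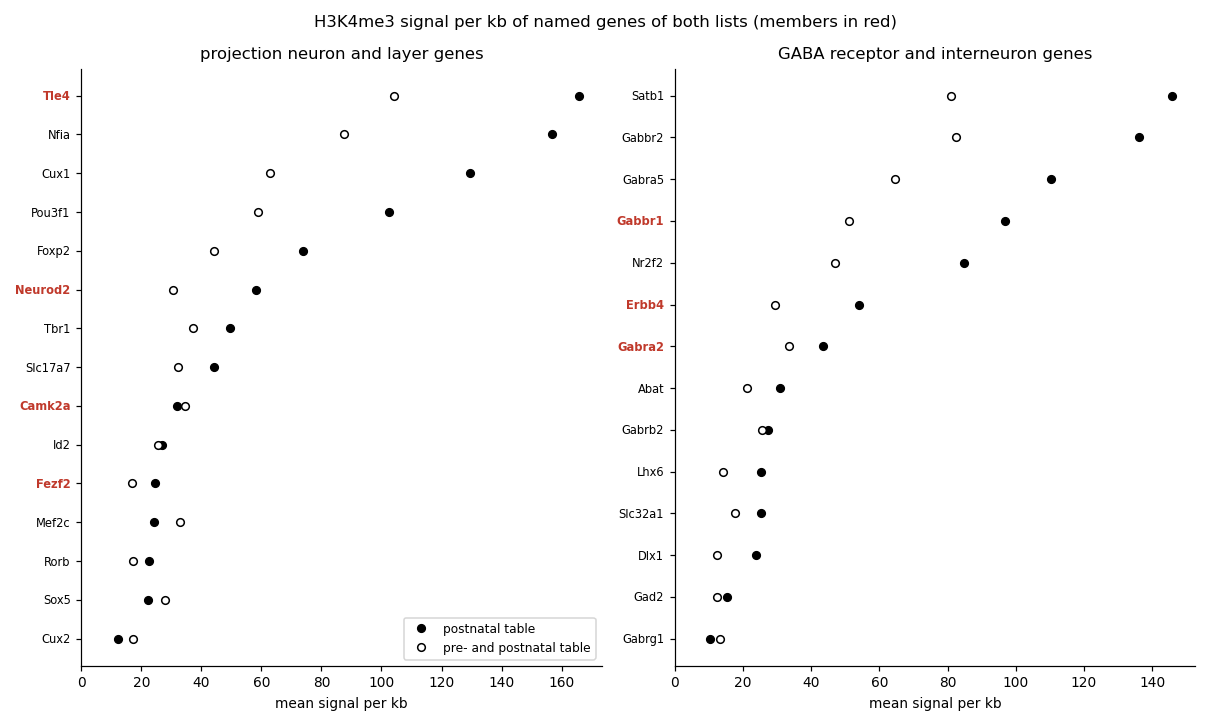
Mean signal per kb of the genes named in the text from the projection neuron list (left) and the GABA list (right) in the postnatal table (filled) and the pre- and postnatal table (open), ordered by the postnatal value, with the genes described here in red. Tle4 is the top gene on the left, Fezf2 lies near the foot, and Gad2, Dlx1 and Lhx6 lie below Gabra2 and Erbb4.

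Postnatal nicotine was compared with postnatal saccharin first. At Tle4 the signal was 312 and 288 in the nicotine samples, against 258 and 256 in the saccharin samples. Both nicotine samples were higher, and so were all 4 nicotine libraries than all 4 saccharin libraries. The 2 libraries of a sample differ by about counting noise, so they add no replication here or at the genes below. The log2 difference was 0.22 ± 0.11 (SE; nicotine 300 ± 17.0 and saccharin 257 ± 1.96, SD, n = 2 each). It was 0.16 under quantile normalization and 0.17 under abundance-trended offsets. At Fezf2 the signal was 29.0 and 42.9 in nicotine samples, against 49.2 and 46.6 in saccharin samples. Both nicotine samples were lower, but single libraries overlapped. The log2 difference was -0.43 ± 0.28 (SE), and it was -0.67 within the samples of high share in the strongest regions and -0.19 within those of low share. Without nicotine libraries 1 and 2 it was -0.16, and without nicotine libraries 3 and 4 it was -0.71.

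At the receptor genes the values lay on either side of 0. The upstream Gabbr1 region held 262 and 279 in nicotine samples, against 262 and 214 in saccharin samples, and the groups overlapped (log2 difference 0.19 ± 0.12, SE). Leaving out a sample moved this value between 0.05 and 0.33: it was 0.05 without saccharin libraries 3 and 4, the low saccharin sample, and 0.33 without saccharin libraries 1 and 2. The downstream Gabbr1 region held 74.5 and 72.3 in nicotine samples, against 84.3 and 51.9 in saccharin samples, whose spread enclosed the nicotine values (log2 difference 0.15 ± 0.22, SE). At Gabra2 the signal was 108 and 104 in nicotine samples, against 121 and 126 in saccharin samples. Both nicotine samples were lower, as were all 4 nicotine libraries, and the log2 difference was -0.21 ± 0.14 (SE), with -0.21 and -0.22 within the samples of high and of low share.

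At the 3 genes named for the other exposure the postnatal groups overlapped. Neurod2 held 164 and 175 in nicotine samples, against 195 and 173 in saccharin samples (log2 difference -0.12 ± 0.12, SE, adjusted p = 1.00 in limma). It was -0.031 without saccharin libraries 1 and 2, -0.071 without nicotine libraries 1 and 2 and -0.20 without saccharin libraries 3 and 4. Erbb4 held 171 and 170 in nicotine samples, against 148 and 190.0 in saccharin samples (0.024 ± 0.13, SE, adjusted p = 1.00 in limma). Camk2a held 81.3 and 48.8 in nicotine samples, against 60.7 and 71.6 in saccharin samples (-0.06 ± 0.24, SE, adjusted p = 1.00 in limma). The Camk2a signal was higher in the samples of high share in both groups, by 0.48 on the log2 scale on average, and the nicotine difference was 0.18 within those and -0.31 within the samples of low share. The part of that share in the Camk2a values was not tested.

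Over the 14873 postnatal regions tested, 0% passed an adjusted p of 0.05 in limma, so none of the 8 was called. Before adjustment 281 regions (1.89%) had a p below 0.05. Nicotine and saccharin did not overlap at 3 of the 8 regions (Tle4 higher, Fezf2 and Gabra2 lower), against 29.1% of all regions (15% higher and 14% lower). These 3 were named for this difference, so nothing is read from the count.

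The pre- and postnatal exposure had its own saccharin libraries. At Camk2a the signal was 84.4, 88.0 and 72.6 in nicotine libraries, against 65.5, 57.6 and 58.7 in saccharin libraries. All 3 nicotine libraries were higher. The log2 difference was 0.42 ± 0.20 (SE; nicotine 81.7 ± 8.05 and saccharin 60.6 ± 4.29, SD, n = 3 each), and it lay between 0.37 and 0.50 when any single library was left out. With the share of the strongest regions as a term it was 0.42. At Neurod2 the signal was 81.5, 103 and 65.7 in nicotine libraries, against 115, 88.2 and 103 in saccharin libraries. The groups overlapped, and the log2 difference was -0.31 ± 0.20 (SE), with -0.15 without nicotine library 4 and -0.47 without nicotine library 3. At Erbb4 the signal was 120.5, 93.1 and 88.3 in nicotine libraries, against 84.3, 94.1 and 70.6 in saccharin libraries. One nicotine library stood above all others, and the log2 difference was 0.27 ± 0.19 (SE), or 0.14 without that library (nicotine 1).

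Of the 4 genes named for the postnatal exposure, only Tle4 was separated by treatment in this table. Tle4 held 180.1, 177 and 185 in nicotine libraries, against 166, 175 and 164 in saccharin libraries. All 3 nicotine libraries were higher, and the log2 difference was 0.10 ± 0.15 (SE, adjusted p = 0.987 in limma). Quantile normalization gave 0.05 and abundance-trended offsets gave 0.06. Fezf2 held 31.3, 26.6 and 29.4 in nicotine libraries, against 34.3, 21.4 and 29.1 in saccharin libraries (0.06 ± 0.33, SE, adjusted p = 0.992 in limma). The saccharin libraries spread more widely than the nicotine ones and enclosed them. Gabra2 held 76.7, 108 and 86.4 in nicotine libraries, against 103, 80.2 and 78.2 in saccharin libraries (0.05 ± 0.20, SE, adjusted p = 0.988 in limma), and here too the groups overlapped.

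Both Gabbr1 regions lay lower in nicotine in this table, without separation of the groups. The upstream region held 180.3, 102 and 112 in nicotine libraries, against 128, 127 and 155 in saccharin libraries (log2 difference -0.10 ± 0.19, SE, adjusted p = 0.987 in limma). Nicotine library 1 was the highest of the 6, and without it the difference was -0.35. The downstream region held 52.1, 38.5 and 57.9 in nicotine libraries, against 46.9, 55.5 and 64.2 in saccharin libraries (-0.17 ± 0.25, SE, adjusted p = 0.987 in limma). It was -0.0038 without nicotine library 3.

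Over the 14879 pre- and postnatal regions tested, 0% passed an adjusted p of 0.05 in limma, so again none of the 8 was called. Before adjustment 534 regions (3.59%) had a p below 0.05. The groups did not overlap at 2 of the 8 regions (Camk2a and Tle4, nicotine higher in both), against 8.95% of all regions (4.49% higher and 4.46% lower). Camk2a was named for this difference, so nothing is read from this count either. The sign of the log2 difference was opposite in the exposures at 5 of the 8 regions, where 49.8% of 14871 regions had opposite signs. The difference between the exposures was not tested at these regions, since they were chosen on its parts.

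**Figure D3:**
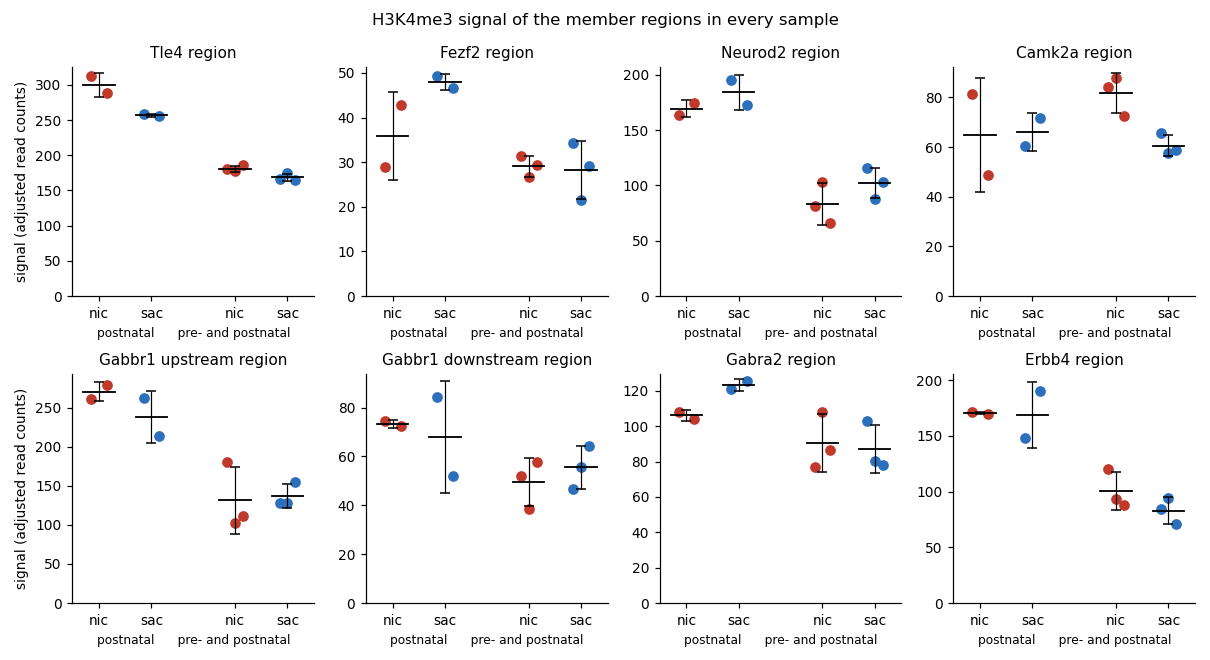
Signal (adjusted read counts per region) of the 8 regions in every sample, with nicotine (nic, red) left of saccharin (sac, blue) in each exposure; lines are means and bars SD, n = 2 each in the postnatal and n = 3 each in the pre- and postnatal table. Tle4 is separated by treatment in both exposures, Fezf2 and Gabra2 in the postnatal one and Camk2a in the pre- and postnatal one.

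**Figure D4:**
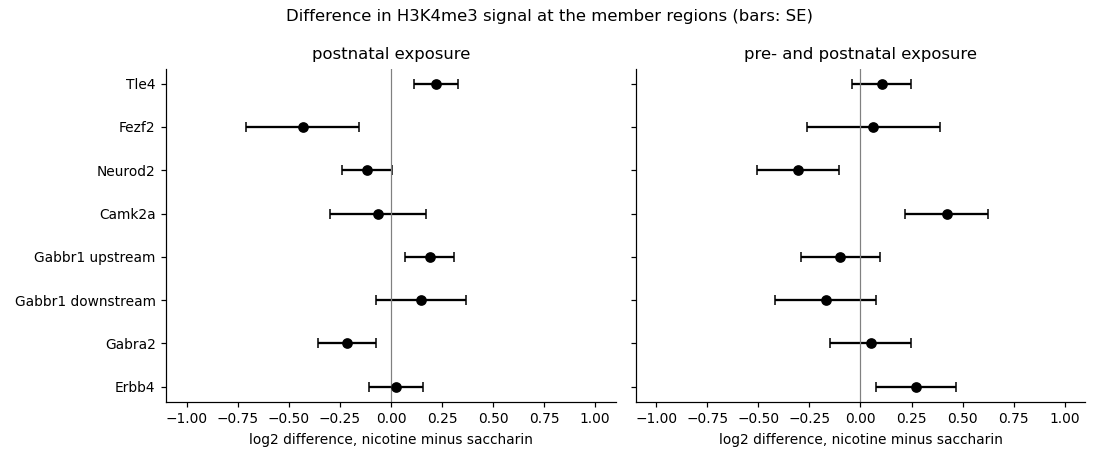
Log2 difference, nicotine minus saccharin, at the 8 regions after postnatal (left) and pre- and postnatal (right) exposure, with bars of 1 SE from limma. The points lie between -0.43 (Fezf2) and 0.22 (Tle4) on the left and between -0.31 (Neurod2) and 0.42 (Camk2a) on the right.

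Apart from the members, 19 projection neuron and layer genes were measured. After postnatal exposure 7 lay higher and 12 lower in nicotine (median log2 difference -0.05, against -0.0036 over all regions), and none passed the test in limma. The highest values were those of Pou3f1, a POU factor (0.21), Sox5, a factor of deep-layer identity (0.19), and Slc17a7 (0.10). The lowest were those of Mef2c, a factor of neuronal differentiation (-0.51), Tbr1 (-0.26) and Rorb, a layer marker (-0.23). After pre- and postnatal exposure 9 lay higher and 10 lower (median -0.01, against 0.0027 over all regions), or 7 and 12 under quantile normalization, and none passed. The ends of the range were Id2 (0.39), Mef2c (0.39) and Slc17a7 (0.28), and Cux2 (-0.37), Foxp2, a deep-layer factor (-0.29), and Rorb (-0.19).

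Of 28 further GABA receptor and interneuron genes 15 lay higher and 13 lower in nicotine after postnatal exposure (median 0.03). Under both other scalings 17 lay higher and 11 lower. After pre- and postnatal exposure 15 lay higher and 13 lower (median 0.04), with the same counts under both other scalings. None passed in limma. Gad2 stood at an end of the range in both exposures, with 0.56 ± 0.43 after postnatal and -0.48 ± 0.54 after pre- and postnatal exposure (SE), on means of 14.4 to 23.8. Lhx6 (0.38) stood with it at the high end after postnatal exposure, and at the low end were Gabrb2 (-0.31), the GABA-degrading enzyme gene Abat (-0.30) and Gabrg1 (-0.20). After pre- and postnatal exposure Nr2f2, an orphan nuclear receptor gene of some interneurons (0.30), was among the 3 highest and Dlx1 (-0.49) among the 3 lowest.

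Close relatives of the members were taken as whole lists. Among the TLE corepressors, Tle1 held 507 in nicotine and 492 in saccharin after postnatal exposure (log2 difference 0.05), Tle3 held 288 and 268 (0.11), Aes 184 and 186 (-0.01) and Tle2 3.90 and 5.96 (-0.54). After pre- and postnatal exposure their differences were 0.05, -0.21, 0.20 and -0.50. None passed, and the sign of the median of this list turned under at least 1 other scaling in each exposure.

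Among 9 measured calcium- and calmodulin-dependent kinase genes and inhibitors other than Camk2a, 6 lay higher in nicotine after postnatal and 7 after pre- and postnatal exposure (medians 0.11 and 0.12), where 6 of 9 lay higher in either exposure under both other scalings, and none passed. The subunit gene Camk2b had log2 differences of 0.13 and 0.16, Camk2g 0.21 and 0.12, Camk2d -0.07 and 0.02, and the inhibitor gene Camk2n1 0.13 and 0.20. Camk4 had -0.10 and 0.17, Camkk1 0.11 and 0.08, Camk1 0.14 and -0.10, Camk1d 0.09 and -0.10, and Camk1g -0.63 and 0.53. Of the neuregulin and ErbB genes other than Erbb4, Egfr had 0.23 and -0.52, Erbb2 -0.13 and 0.26, and the ligand genes Nrg2 -0.08 and -0.15 and Nrg3 -0.06 and -0.12. None of these passed either.

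Pan-neuronal markers were checked beside these results. All 5 measured of 8 (Snap25, Tubb3, Eno2, Nefl and Stmn2) lay lower in postnatal nicotine, where 1 lay higher under both other scalings. Their summed signal was 394 to 398 in nicotine samples, against 422 to 453 in saccharin samples. After pre- and postnatal exposure 4 of the 5 lay higher, and the sums overlapped (310 to 390 in nicotine and 295 to 387 in saccharin). The summed signal of 8 measured oligodendrocyte markers (4 higher and 4 lower, or 5 and 3 under both other scalings) was 666 to 687 in postnatal nicotine samples, against 643 to 655 in saccharin samples. After pre- and postnatal exposure 5 lay higher and 3 lower, and the sums overlapped (328 to 393 in nicotine and 339 to 356 in saccharin). With 2 against 2 postnatal samples, 29.1% of all single regions did not overlap, so little is read from separated postnatal sums. The sums of astrocyte (4 of 9 measured), endothelial (5 of 7) and striatal (4 of 6) markers overlapped between nicotine and saccharin in both tables, and all 4 striatal markers lay lower in nicotine after pre- and postnatal exposure. Of 7 microglia markers only Irf8 had a region, at 5.92 in nicotine and 4.03 in saccharin after postnatal exposure, and at 5.01 in nicotine and 8.25 in saccharin after pre- and postnatal exposure. For erythrocytes 0 of 4 markers had one. None of these markers was at 0 in any sample. Their part in the values of the 8 regions was not tested.

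Likeness across the 10 samples was taken as Pearson's r of log2 signal after the table mean was subtracted, among 9094 named regions, as a description without a test. The genes most like Tle4 were Tacc1 (0.94) and Srcin1 (0.91), and those most like Fezf2 were Nrp2 (0.91) and Kcnk1 (0.91). For Neurod2 they were Mex3a (0.96) and Tal1 (0.95), and for Camk2a Cc2d1b and Cdk18 (0.87 each). For the upstream Gabbr1 region they were Rnf139 (0.97) and Arl8b (0.97), and for the downstream one Ano8 (0.91) and Dnajc9 (0.90). For Gabra2 they were Dkk3 (0.93) and Tnfaip8 (0.92), and for Erbb4 Arhgap17 (0.95) and Fgf8 (0.93). Among the 8 regions themselves the 2 Gabbr1 regions had an r of 0.57 with each other and of -0.75 (upstream) and -0.69 (downstream) with Gabra2, and Tle4 had -0.65 with Fezf2. These values hold the treatment differences by which the genes were chosen.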

How the data were processed

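H3K4me3 ChIP-seq of mouse cerebral cortex was deposited as 1 table per exposure. Each deposited value is a signal, a read count adjusted with edgeR on build mm9, per the submitters' processing notes, and is neither whole nor negative. Aligner, peak caller and versions: not given in the sources used here. The 2 files had 19203 rows each, of which 4322 held no values and were left out. Width is end minus start as the files give them. Values were not whole, so no count model was run. limma 3.58.1 with trend (R 4.3.3) was fitted per exposure on log2(signal + 1), over regions with at least 1 in as many samples as the smaller group, two-sided, with Benjamini-Hochberg adjustment over all regions. Fold differences on this scale understate those of weak regions. The fit was tested on simulated data.

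Library pairs were compared over regions with means of 10 to 1000, read as counts, a rough guide. Same-numbered postnatal libraries deviated in opposite directions (r -0.35 to -0.27). With 2 samples per group these correlations repeat a single contrast, which runs along with the share of the strongest regions. They cannot show whether the numbers pair samples, and the main fit used no pairing. Members and gene lists were chosen with earlier results of these data known. The genes named were the members, the 3 highest and 3 lowest others of both main lists, the relatives' lists in full and the 2 most alike genes (mean signal of at least 20). Some genes this rule names are not reported here. Level examples within lists were picked after their values were seen. Figures were drawn with matplotlib 3.10.9.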

Additional observations from a re-analysis of the deposited data

How the results depend on the processing

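The count of regions called, 0 in both exposures, was kept under other pseudocounts (0.5 and 5), filters, quantile normalization, abundance-trended offsets and the share of the strongest regions as a term, and with 8 separate postnatal libraries. Leaving out 1 sample gave 0 to 31 calls after postnatal exposure (31 without nicotine libraries 3 and 4, and 7 without nicotine libraries 1 and 2) and 0 to 17 after pre- and postnatal exposure (17 without nicotine library 1). With the replicate block the postnatal count was 1 and the pre- and postnatal count 0. The crossed pairing, chosen after seeing the data, gave 9. None of the 8 regions was called in any of these fits (smallest adjusted p 0.441 in limma, for Tle4 with 8 separate libraries).

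The sign of the log2 difference turned in 12 of 224 refits of the 8 regions, over 6 of 16 differences. After postnatal exposure Camk2a became 0.022 under quantile normalization, 0.054 without saccharin libraries 3 and 4 and 0.30 without nicotine libraries 3 and 4, against -0.43 without nicotine libraries 1 and 2. The downstream Gabbr1 region became -0.20 without saccharin libraries 3 and 4, against 0.49 without saccharin libraries 1 and 2. Erbb4 became -0.022 with the share as a term and -0.15 without saccharin libraries 1 and 2, against 0.20 without saccharin libraries 3 and 4. After pre- and postnatal exposure Fezf2, with 0.21 without saccharin library 1, became -0.12 without saccharin library 2 and -0.13 with the replicate block, and the upstream Gabbr1 region ranged between -0.35 without nicotine library 1 and 0.059 without nicotine library 3. Gabra2, with 0.18 without saccharin library 1, became -0.0026 without saccharin library 2, -0.086 without nicotine library 3 and -0.021 without saccharin library 3. The cause was not tested. Tle4 and Neurod2 kept their signs in both exposures in every refit. Depth is unknown, and weak regions such as Fezf2 had the largest standard errors.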
